A study of Mus musculus with 12 samples.

Results

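The p53 pathway and the cyclin-dependent kinase (CDK) inhibitors were followed in endothelial cells of the adult mouse brain cortex through 10 genes out of the 21638 in the deposited count table. They were the CDK inhibitor genes Cdkn1a, Cdkn1b, Cdkn2a, Cdkn2b and Cdkn2c, the p53 gene Trp53, and the p53 target genes Mdm2, Ccng1, Bax and Bbc3. The genes were chosen by name, and the set was selected on a measured difference in Cdkn1a between beta-catenin GOF and Hdac2 ECKO. Values and counts of that contrast are therefore given as a description, and no test of it is read as a result. Of the 10 genes, 9 averaged 10 or more counts per library and were tested, and Cdkn2a did not reach that level. There were 12 RNA-seq libraries in 4 groups of 3: wild type (WT), Hdac2 ECKO, Ezh2 ECKO and beta-catenin GOF. Hdac2 ECKO cells came from Hdac2lox/lox:Cdh5CreERT2 mice, in which the histone deacetylase gene Hdac2 is meant to be removed from endothelium. Ezh2 ECKO cells came from Ezh2lox/lox:Cdh5CreERT2 mice, the equivalent design for the Polycomb histone methyltransferase gene Ezh2. Beta-catenin GOF cells came from Ctnnb1lox/lox:Cdh5CreERT2 mice, in which beta-catenin is meant to be active at all times. Cdh5CreERT2 is a Cre recombinase driven by the endothelial Cdh5 promoter and switched on by tamoxifen, given in 5 doses at 75 mg/kg with brains collected 2 months later. The labels do not say whether WT mice carried Cre or received tamoxifen, and they give no sex or exact age. Cells had been sorted as positive for CD31 and negative for CD41 and CD45. The labels do not say whether replicates came from separate mice, so p-values measure the spread between these libraries.

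The p53 protein is a transcription factor that is held at a low level by the ubiquitin ligase Mdm2 and is stabilised after DNA damage and other stress. It then switches on genes that stop the cell cycle, among them Cdkn1a, and genes that promote cell death, among them Bax and Bbc3, while its induction of Mdm2 closes a feedback loop. CDK inhibitors fall into the Cip/Kip family, here Cdkn1a (p21) and Cdkn1b (p27), which bind several cyclin-CDK complexes, and the INK4 family, here Cdkn2a (p16), Cdkn2b (p15) and Cdkn2c (p18), which bind Cdk4 and Cdk6. Endothelial cells of the adult brain rarely divide, and these inhibitors are part of the machinery that holds cells out of the cycle.

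The start regions of Cdkn1a are shown because Cdkn1a had the largest difference from WT among the 9 tested genes, and that of Ccng1 because it also holds a p53 full site but had a log2 fold change near 0. Each sequence is the 250 bases before an annotated transcript start, 5′ to 3′ on the gene's strand, from RefSeq on build GRCm38.p6. Capitals mark matches to the p53 half-site, the p53 full site or the GC box GGGCGG. Cdkn1a has 2 annotated starts, and the first lies upstream of the second.
Cdkn1a first start (chr17:29090729-29090978, plus strand): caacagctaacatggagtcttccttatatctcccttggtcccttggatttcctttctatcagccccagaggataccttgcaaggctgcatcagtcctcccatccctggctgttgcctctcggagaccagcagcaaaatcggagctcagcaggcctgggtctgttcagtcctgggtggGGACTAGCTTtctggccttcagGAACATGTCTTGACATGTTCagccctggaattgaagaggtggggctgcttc
Cdkn1a second start (chr17:29093519-29093768, plus strand): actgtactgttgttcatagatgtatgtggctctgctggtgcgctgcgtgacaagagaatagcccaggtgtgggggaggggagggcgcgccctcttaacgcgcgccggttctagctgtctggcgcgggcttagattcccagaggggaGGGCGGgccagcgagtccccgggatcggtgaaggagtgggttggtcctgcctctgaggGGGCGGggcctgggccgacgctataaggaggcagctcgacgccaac
Ccng1 (chr11:40755287-40755536, minus strand): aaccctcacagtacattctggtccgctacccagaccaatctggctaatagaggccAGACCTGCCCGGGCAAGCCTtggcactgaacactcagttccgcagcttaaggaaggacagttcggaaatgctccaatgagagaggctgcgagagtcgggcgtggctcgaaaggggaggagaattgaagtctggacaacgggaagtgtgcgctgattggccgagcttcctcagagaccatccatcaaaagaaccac

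All 10 genes matched the RefSeq table, with 15 such regions between them. The p53 full site was searched on both strands as 2 copies of the p53 half-site, a sequence of 10 positions whose core is a C, 2 bases that are each A or T, and a G, side by side with no gap and with at most 1 of 20 positions off. Of 32851 regions of this length in the table, 25 (0.0761%) held a full site, and among the 10 genes Cdkn1a and Ccng1 each had 1. In Cdkn1a the match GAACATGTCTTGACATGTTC lay at −51 to −32 from the first start, and in Ccng1 the match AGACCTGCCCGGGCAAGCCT lay at −195 to −176 from its start. A half-site with every position matched was in 7.13% of all regions and, among the genes, in those of Cdkn1a, Trp53, Mdm2, Ccng1 and Bax, where matches can lie within a full site. The GC box, bound by Sp1-family factors, was in 32.7% of all regions, and the region before the second Cdkn1a start held 2 copies. The sequence TATAAA of the TATA box was in 12.4% of all regions and in 1 of Trp53. That match was TTTATA at −248 to −243 from the start, which is TATAAA on the opposite strand, at the far end of the region. A match is a description of these letters, since no binding was measured here.

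Several properties of the libraries bear on every value below. Totals ranged from 24781070 to 36109975 counts, and 13922 to 17091 genes were above 0. The targeted genes themselves passed the test (adjusted p under 0.05) in no comparison with WT. Hdac2 had a log2 fold change of −0.42 in Hdac2 ECKO (SE 0.24, adjusted p = 0.22) and of −0.43 in beta-catenin GOF (SE 0.24, adjusted p = 0.88), with means of 96.5 ± 15.2 and 96.2 ± 10.1 CPM against 129 ± 30.1 in WT. Its counts thus do not set Hdac2 ECKO apart from beta-catenin GOF. Ezh2 had 0.40 in the Ezh2 ECKO-labelled libraries (SE 0.46, adjusted p = 0.61), which goes against a lower level, so that label is quoted as a label throughout. Ctnnb1 had −0.17 in beta-catenin GOF (SE 0.29, adjusted p = 0.96). Whether a deletion outside the counted part or a stabilised protein was present cannot be read from gene counts. Endothelial markers (10 genes) summed to 12520 to 14948 CPM (counts per 1000000 of the scaled library total) in Hdac2 ECKO, below all 9 other libraries, with 0 of 10 called in any comparison. They summed to 16269 to 22069 CPM in WT, 15934 to 21883 in the Ezh2 ECKO-labelled libraries and 18650 to 21702 in beta-catenin GOF. Pericyte and smooth muscle markers (10 genes) summed to 67.5 to 124 CPM in WT and 129 to 320 in Hdac2 ECKO, where Myh11, Pdgfrb and Rgs5 were called higher. They summed to 57.8 to 76.2 CPM in the Ezh2 ECKO-labelled libraries and 122 to 381 in beta-catenin GOF, with Cnn1 at 0 in all WT libraries. Red cell and platelet markers (6 genes) summed to 26054 to 45573 CPM in WT, 287 to 15181 in Hdac2 ECKO, 1919 to 4929 in the Ezh2 ECKO-labelled libraries and 380 to 26754 in beta-catenin GOF. Alas2 of this list was called lower in Hdac2 ECKO. Leukocyte, neuron and fibroblast markers each summed to at most 9.21 CPM, astrocyte markers to 23.9 to 77.2 CPM and oligodendrocyte markers to 13.1 to 76.8 CPM. None was called, but few were tested: 3 of 9 leukocyte, 2 of 6 fibroblast, 3 of 5 astrocyte, 3 of 5 oligodendrocyte and 0 of 5 neuron markers. In bulk RNA, fewer cells of a type and less RNA per cell cannot be told apart. A trend with gene length also ran between groups: the median log2 level of the longest 20% of genes minus that of the shortest 20%, against the mean of all libraries, was −0.53 to −0.35 in WT and 0.23 to 0.81 in Hdac2 ECKO. In the Ezh2 ECKO-labelled libraries it was 0.49 and 0.54 in replicates 1 and 3 but −0.65 in replicate 2, and in beta-catenin GOF it was −0.35 to −0.24. Replicate 2 labelled Ezh2 ECKO thus stood apart from its group and on the side of WT. Differences from WT are therefore given also from a fit with the trend of length and GC content removed.

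Cdkn1a, whose product p21 blocks cyclin-CDK complexes, was low in all Hdac2 ECKO libraries. The gene (ENSMUSG00000023067.14, chr17:29090976-29100727, plus strand, GRCm38) stood at 207, 168 and 111 CPM in WT replicates 1, 2 and 3. In Hdac2 ECKO it stood at 32.5, 34.6 and 40.1 CPM. In the Ezh2 ECKO-labelled libraries it stood at 80.8, 177 and 83.6 CPM, and in beta-catenin GOF at 131, 122 and 126 CPM. All 3 Hdac2 ECKO values lay below all 9 values of the other groups, and the beta-catenin GOF values lay close together, at 126 ± 4.67 CPM (SD, n = 3). Replicate 2 labelled Ezh2 ECKO lay within the WT range, while its replicates 1 and 3 lay below it. An antisense gene, AC167363.2, overlaps Cdkn1a on the opposite strand, and without a stated strand setting their reads cannot be told apart.

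Against WT (162 ± 48.2 CPM), Cdkn1a in Hdac2 ECKO (35.7 ± 3.92 CPM) was lower by edgeR, with a value of −2.18 on the log2 scale (SE 0.32, adjusted p = 0.032). Because the Hdac2 ECKO libraries also entered the choice of the gene set, this value is not independent support for a difference in Cdkn1a. With the trend of length and GC content removed it was −1.87 (adjusted p = 0.016). Under 9 other ways of processing, the fold change lay between −2.24 and −1.87 and passed each time. With single libraries left out it lay between −2.39 and −1.97, and it passed in 2 of 6 fits, those without WT replicate 3 or Hdac2 ECKO replicate 2. It did not pass without WT replicate 1, WT replicate 2, Hdac2 ECKO replicate 1 or Hdac2 ECKO replicate 3, fits in which at most 1 gene of the whole table passed. Immediate early genes are those that cells induce within minutes of a stimulus. In the same comparison 6 of 16 tested were called lower (4 with the trend removed), and the others were not called. The summed level of the list was 4450 to 12898 CPM in WT against 2293 to 5673 in Hdac2 ECKO, with overlap. The part of these genes in the Cdkn1a result was not tested, nor was that of the endothelial, pericyte and red cell markers above.

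The Ezh2 ECKO-labelled and WT libraries were not part of the contrast used for the choice, but the genes were chosen with earlier results of these data known. Between these groups Cdkn1a did not pass. Its level labelled Ezh2 ECKO was 114 ± 54.7 CPM, which is −0.51 on the log2 scale against WT (SE 0.31, edgeR adjusted p = 0.31, 95% interval −1.11 to 0.09), and −0.20 with the trend removed. The value rested on replicate 2: without it the fold change was −0.98 (adjusted p = 0.021). That was the only 1 of 6 left-out fits that passed, and over all 6 the fold change lay between −0.98 and −0.30. The next values involve Hdac2 ECKO or beta-catenin GOF libraries that entered the choice, and they support nothing on their own. In beta-catenin GOF the fold change against WT was −0.36 (SE 0.31, adjusted p = 0.92), and −0.29 with the trend removed. The Ezh2 ECKO-labelled libraries against Hdac2 ECKO gave 1.67 for Cdkn1a (SE 0.32, adjusted p = 0.11). Between beta-catenin GOF and Hdac2 ECKO, the contrast used for the choice, it was 1.82 (SE 0.32). Between beta-catenin GOF and the Ezh2 ECKO-labelled libraries it was 0.15 (SE 0.31, adjusted p = 0.85, 95% interval −0.45 to 0.75), and −0.085 with the trend removed.

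**Figure D1:**
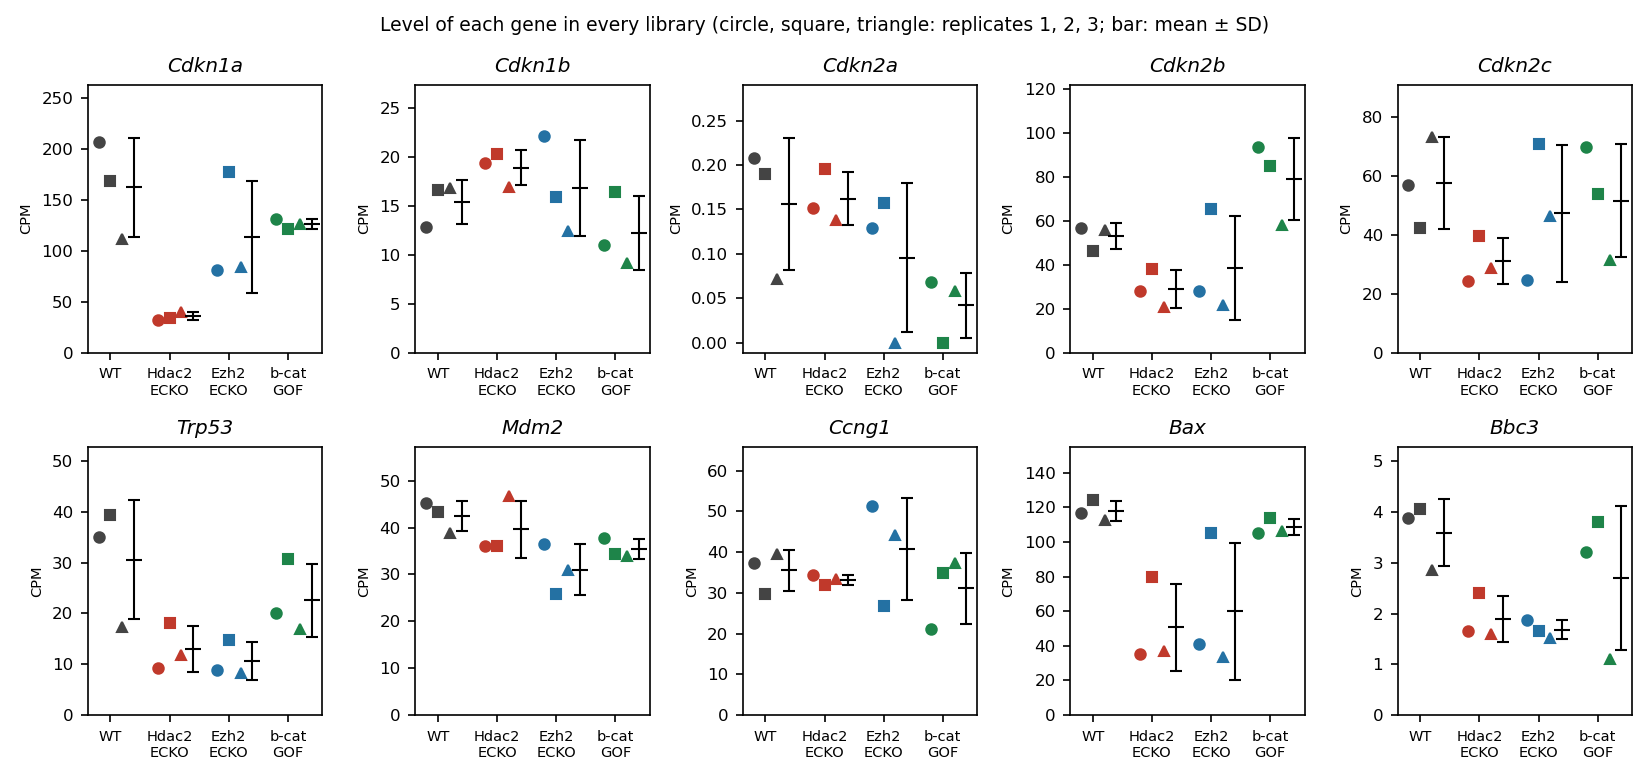
Level of each of the 10 genes in CPM (vertical axis) in every library of the 4 groups, where b-cat GOF is beta-catenin GOF and Ezh2 ECKO is the group as labelled. Symbols are replicates 1, 2 and 3, and the bar is the mean ± SD. The 3 Hdac2 ECKO values of Cdkn1a, 32.5 to 40.1 CPM, sit below all other libraries, and for Cdkn2b, Cdkn2c and Bax replicate 2 labelled Ezh2 ECKO sits apart from its group.

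The other Cip/Kip gene of the set, Cdkn1b, did not share the low level of Cdkn1a. Cdkn1b (ENSMUSG00000003031.14, chr6:134920401-134925513, plus strand), whose product p27 restrains entry into S phase, stood at 12.8, 16.7 and 16.8 CPM in WT and at 19.4, 20.4 and 16.9 CPM in Hdac2 ECKO. In the Ezh2 ECKO-labelled libraries it stood at 22.2, 15.9 and 12.5 CPM, and in beta-catenin GOF at 11.0, 16.5 and 9.17 CPM. The Hdac2 ECKO values lay just above the WT values, and the other groups overlapped with WT. The log2 fold changes against WT were 0.29 in Hdac2 ECKO (adjusted p = 0.52, 95% interval −0.30 to 0.88), 0.13 labelled Ezh2 ECKO (adjusted p = 0.83) and −0.34 in beta-catenin GOF (adjusted p = 0.93). After removal of the trend they were 0.25, 0.05 and −0.24, and none passed the test in either fit.

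The INK4 genes Cdkn2b and Cdkn2c had lower mean levels in Hdac2 ECKO without passing the test. Cdkn2b (ENSMUSG00000073802.5, chr4:89306299-89311039, minus strand), known for its induction by TGF-beta, stood at 56.9, 46.2 and 55.8 CPM in WT and at 28.2, 38.1 and 21.0 CPM in Hdac2 ECKO. In the Ezh2 ECKO-labelled libraries it stood at 28.2, 65.6 and 21.8 CPM, and in beta-catenin GOF at 93.7, 85.1 and 58.0 CPM. All Hdac2 ECKO values lay below WT and all beta-catenin GOF values above it, while replicate 2 labelled Ezh2 ECKO was above WT and the other two below. The log2 fold changes against WT were −0.86 in Hdac2 ECKO (SE 0.37, adjusted p = 0.12), −0.46 labelled Ezh2 ECKO (adjusted p = 0.45) and 0.58 in beta-catenin GOF (SE 0.36, adjusted p = 0.89). With the trend removed they were −0.26, −0.28 and 0.57, so the Hdac2 ECKO difference moved most. Between beta-catenin GOF and the Ezh2 ECKO-labelled libraries the value was 1.04 (SE 0.37, adjusted p = 0.31). Between beta-catenin GOF and Hdac2 ECKO it was 1.44 (SE 0.37), given as a description.

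Cdkn2c (ENSMUSG00000028551.14, chr4:109660876-109667189, minus strand) stood at 57.1, 42.4 and 73.5 CPM in WT and at 24.5, 39.7 and 28.9 CPM in Hdac2 ECKO. It stood at 24.6, 71.0 and 46.4 CPM in the Ezh2 ECKO-labelled libraries and at 69.8, 53.8 and 31.4 CPM in beta-catenin GOF. Hdac2 ECKO lay below WT by a narrow margin, and the other groups overlapped with WT. The log2 fold change of Hdac2 ECKO against WT was −0.89 (SE 0.38, adjusted p = 0.12), and −0.44 with the trend removed. Those labelled Ezh2 ECKO (−0.28, adjusted p = 0.67) and in beta-catenin GOF (−0.16, adjusted p = 0.97) were smaller, and with the trend removed they were 0.07 and −0.13.

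Cdkn2a, the locus of p16 and p19Arf and a marker of cell senescence, was at the limit of detection. Its counts (ENSMUSG00000044303.6, chr4:89274471-89294653, minus strand) were 6, 6 and 2 in WT and 4, 6 and 4 in Hdac2 ECKO. They were 4, 4 and 0 in the Ezh2 ECKO-labelled libraries and 2, 0 and 2 in beta-catenin GOF. Since both mates of a read pair were counted, these are few fragments, and no difference was detectable at this depth. A value of 0 allows up to 3 read pairs (6 counts), 0.166 to 0.242 CPM depending on the library. Gene counts do not separate the transcripts of p16 and p19Arf.

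Trp53, the gene of p53 itself, had lower mean levels both in Hdac2 ECKO and in the Ezh2 ECKO-labelled libraries, just short of the threshold. Trp53 (ENSMUSG00000059552.13, chr11:69580359-69591873, plus strand) stood at 35.1, 39.3 and 17.2 CPM in WT and at 9.16, 18.1 and 11.9 CPM in Hdac2 ECKO. It stood at 8.85, 14.8 and 8.22 CPM in the Ezh2 ECKO-labelled libraries and at 20.1, 30.7 and 17.0 CPM in beta-catenin GOF. WT replicate 3 was low and fell within the Hdac2 ECKO range, but all 3 values labelled Ezh2 ECKO lay below WT and below beta-catenin GOF. The log2 fold change against WT was −1.23 in Hdac2 ECKO (SE 0.38, edgeR adjusted p = 0.054) and −1.52 labelled Ezh2 ECKO (SE 0.38, adjusted p = 0.059). With the trend of length and GC content removed the values were −1.06 (adjusted p = 0.059) and −1.28 (adjusted p = 0.052), so Trp53 kept most of its difference. Without WT replicate 3 they were −1.51 (adjusted p = 0.027) and −1.81 (adjusted p = 0.020). In Hdac2 ECKO, leaving out its replicate 2 gave −1.59 (adjusted p = 0.025), and leaving out replicate 2 labelled Ezh2 ECKO gave −1.84 there (adjusted p = 0.014). These were the only 2 of 6 left-out fits that passed in each comparison. Over all 6, Trp53 ran from −1.592 to −1.004 in Hdac2 ECKO and from −1.839 to −1.299 labelled Ezh2 ECKO. The edgeR adjusted p reached 0.204 and 0.227. Both mutants were compared with the same WT libraries, so the 2 differences are not independent. In beta-catenin GOF the value against WT was −0.43 (SE 0.37, adjusted p = 0.93; −0.39 with the trend removed), and against the Ezh2 ECKO-labelled libraries it was 1.09 (SE 0.38, adjusted p = 0.30).

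Mdm2, the ligase that marks p53 for degradation and a p53 target itself, varied little. Mdm2 (ENSMUSG00000020184.15, chr10:117688875-117710758, minus strand) stood at 45.2, 43.4 and 38.9 CPM in WT and at 36.1, 36.2 and 46.7 CPM in Hdac2 ECKO. It stood at 36.5, 25.8 and 30.9 CPM in the Ezh2 ECKO-labelled libraries and at 37.9, 34.4 and 34.0 CPM in beta-catenin GOF. All values labelled Ezh2 ECKO and all beta-catenin GOF values lay below WT, and Hdac2 ECKO overlapped with WT. The log2 fold changes against WT were −0.10 in Hdac2 ECKO (adjusted p = 0.79, 95% interval −0.56 to 0.36), −0.45 labelled Ezh2 ECKO (adjusted p = 0.24) and −0.26 in beta-catenin GOF (adjusted p = 0.93). Removal of the trend gave −0.26 (adjusted p = 0.44), −0.57 (adjusted p = 0.11) and −0.25 (adjusted p = 0.85). The small value in Hdac2 ECKO turned to 0.14 when library totals alone were used for scaling.

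Ccng1, which encodes cyclin G1, a p53-induced partner of a phosphatase that acts on Mdm2, did not pass the test in any comparison. Ccng1 (ENSMUSG00000020326.7, chr11:40748552-40755311, minus strand) stood at 37.2, 29.8 and 39.5 CPM in WT and at 34.5, 32.0 and 33.3 CPM in Hdac2 ECKO. It stood at 51.3, 26.8 and 44.1 CPM in the Ezh2 ECKO-labelled libraries and at 21.2, 34.9 and 37.4 CPM in beta-catenin GOF. Every group overlapped with WT. The fold change in Hdac2 ECKO was −0.09 on the log2 scale (adjusted p = 0.85, 95% interval −0.66 to 0.47), 0.05 with the trend removed and 0.16 with scaling by library totals alone. Its values with the trend removed were 0.0037 in beta-catenin GOF and 0.24 labelled Ezh2 ECKO. Cdkn1a and Ccng1, the 2 genes with a full p53 site in the sequences printed above, had log2 fold changes of −2.18 and −0.09 in the same comparison. They were picked for printing by these values, and the part of the sites was not tested.

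The genes of apoptosis, Bax and Bbc3, had lower means in both groups labelled ECKO, and neither passed. Bax, which permeabilises the outer mitochondrial membrane (ENSMUSG00000003873.11, chr7:45461697-45466898, minus strand), stood at 117, 124 and 113 CPM in WT and at 35.0, 79.7 and 37.1 CPM in Hdac2 ECKO. It stood at 41.3, 105 and 33.3 CPM in the Ezh2 ECKO-labelled libraries and at 105, 114 and 106 CPM in beta-catenin GOF. All values of both groups lay below WT, with replicate 2 the highest of each. The log2 fold change against WT was −1.22 in Hdac2 ECKO (SE 0.39, edgeR adjusted p = 0.058) and −0.97 labelled Ezh2 ECKO (SE 0.39, adjusted p = 0.15). With the trend removed these were −0.58 (adjusted p = 0.11) and −0.60 (adjusted p = 0.12). Without Hdac2 ECKO replicate 2 the first was −1.76 (adjusted p = 0.015), and without replicate 2 labelled Ezh2 ECKO the second was −1.66 (adjusted p = 0.011). These were the only 1 of 6 left-out fits that passed in each comparison. Over all 6, Bax ran from −1.76 to −1.02 in Hdac2 ECKO and from −1.66 to −0.70 labelled Ezh2 ECKO. The edgeR adjusted p reached 0.22 and 0.38. In each group replicate 2 was the library nearest to WT in the length trend. The part of that trend was not tested beyond its removal. In beta-catenin GOF the value was −0.12 (SE 0.39, adjusted p = 0.98), and −0.02 with the trend removed. Bax overlaps Gm45808 on the same strand, and how reads in the overlap were assigned is not given in the sources used here.

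Bbc3, the gene of the BH3-only protein Puma (ENSMUSG00000002083.13, chr7:16308393-16318205, plus strand), was low throughout. WT libraries held 3.89, 4.05 and 2.85 CPM, and Hdac2 ECKO libraries 1.66, 2.41 and 1.59 CPM. The Ezh2 ECKO-labelled libraries held 1.88, 1.65 and 1.51 CPM, and beta-catenin GOF 3.21, 3.80 and 1.10 CPM. Both groups labelled ECKO lay below WT, and beta-catenin GOF replicate 3 was the lowest library of all. The log2 fold changes were −0.92 in Hdac2 ECKO (SE 0.56, adjusted p = 0.26), −1.10 labelled Ezh2 ECKO (SE 0.57, adjusted p = 0.24) and −0.41 in beta-catenin GOF (adjusted p = 0.95). With the trend removed they were −0.23, −0.39 and −0.33.

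Per kilobase of gene length, Bax had the highest mean level of the 10 genes in every group, 74.8 ± 3.60 CPM per kb in WT (SD, n = 3). It did not stand apart from Cdkn1a in the Ezh2 ECKO-labelled libraries (38.1 ± 25.1 against 32.0 ± 15.4 CPM per kb) or from Cdkn2b in beta-catenin GOF (68.9 ± 3.02 against 56.8 ± 13.4) beyond their spread. The same held against Cdkn2b in Hdac2 ECKO (32.1 ± 16.0 against 20.9 ± 6.17). Cdkn1a (45.6 ± 13.6 CPM per kb) and Cdkn2b (38.1 ± 4.23) came next in WT and did not differ beyond their spread. Cdkn2c followed at 21.5 ± 5.78 CPM per kb, then Ccng1 (10.1 ± 1.44), Mdm2 (8.36 ± 0.64) and Trp53 (7.55 ± 2.89), which lay within each other's spread. Cdkn1b (3.39 ± 0.49), Bbc3 (1.69 ± 0.31) and Cdkn2a (0.13 ± 0.063) were the lowest. In Hdac2 ECKO, Cdkn1a moved from the second to the fourth place, at 10.0 ± 1.10 CPM per kb, next to Cdkn2c (11.6 ± 2.91) and Ccng1 (9.47 ± 0.35).

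**Figure D2:**
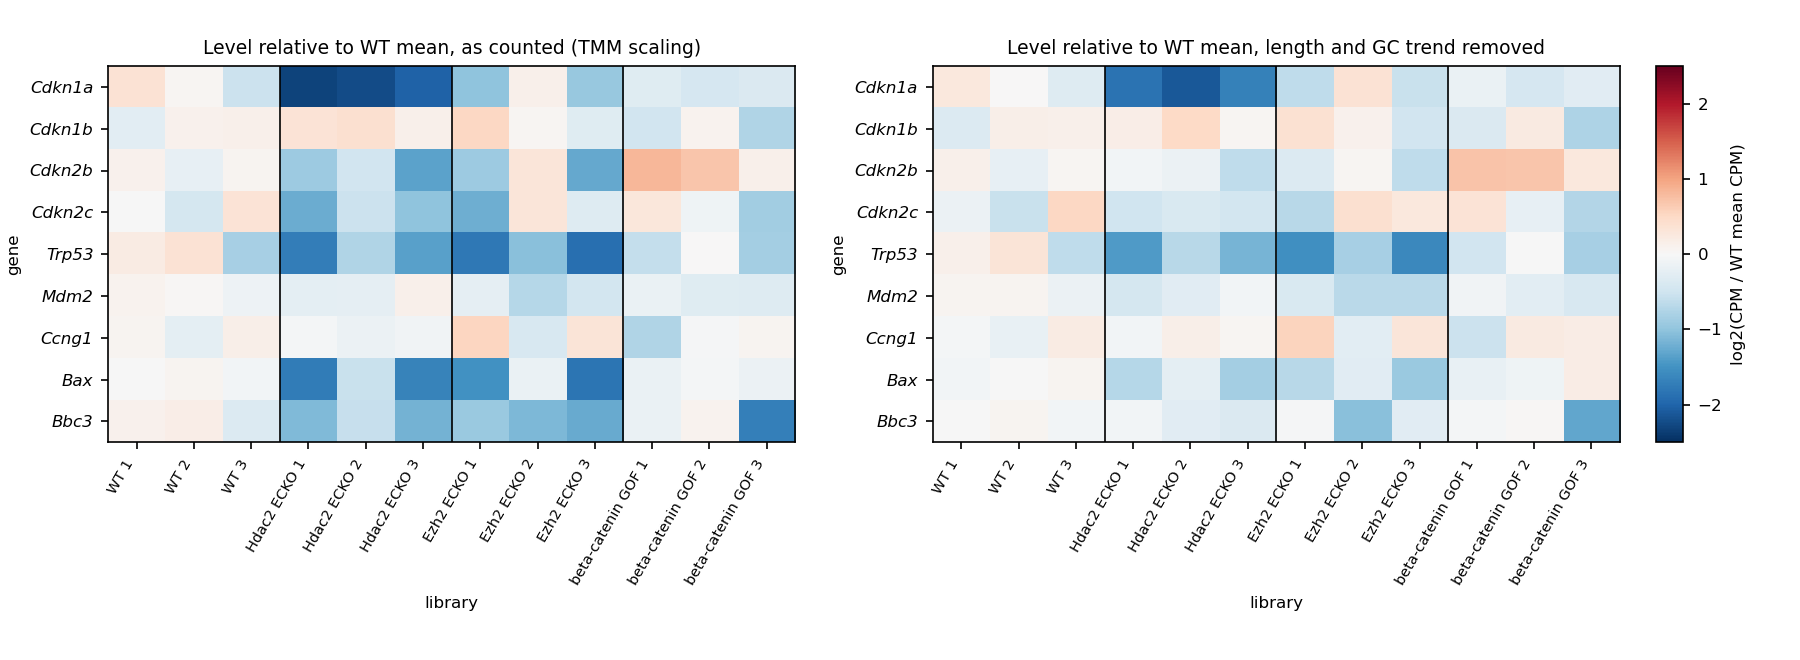
Level of the 9 tested genes in each of the 12 libraries as log2(CPM / WT mean CPM), as counted with TMM scaling on the left and with the trend of length and GC content removed on the right. Blue is below and red above the WT mean, and black lines separate the groups, with Ezh2 ECKO as labelled. The blue of Cdkn2b, Cdkn2c, Bax and Bbc3 in Hdac2 ECKO is paler on the right, whereas Cdkn1a (−1.87 after removal in the fit) and Trp53 (−1.06) stay blue in all 3 libraries.

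Counted over the 9 tested genes, only Cdkn1a was called in Hdac2 ECKO against WT at an adjusted p under 0.05, beside 9.2% of all 12577 tested genes called in either direction and 5.38% called lower. With the trend removed it was again Cdkn1a alone, beside 6.97%, and DESeq2 called 3 of 9, beside 19.9%. Without Hdac2 ECKO replicate 2, Cdkn1a, Trp53 and Bax were called lower (3 of 9, beside 10.6% of all genes), and without WT replicate 3 Cdkn1a and Trp53 (2 of 9, beside 7.69%). At an unadjusted p under 0.05 there were 5 of 9 in this comparison, beside 33.1% of all genes. Without overlap between the groups there were 6 of 9, beside 37.8% of all genes: Cdkn1a, Cdkn2b, Cdkn2c, Bax and Bbc3 lower (5 of 9, beside 18.2%), and Cdkn1b higher (1 of 9, beside 19.5%). The median log2 fold change was −0.89 over the 9 genes and 0.10 over all tested genes, and with the trend removed −0.26 and 0.04. The Hdac2 ECKO libraries entered the choice of the set, so these counts are a description.

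In the Ezh2 ECKO-labelled libraries against WT, 0 of 9 genes were called by edgeR, beside 1.03% of all genes. At an unadjusted p under 0.05 there were 2 of 9, Bax and Trp53, beside 24.7% of all genes. DESeq2 called 1, beside 10.1%, and with the trend removed edgeR again called 0, beside 2.15%. Trp53, Mdm2, Bax and Bbc3 lay below WT without overlap, 4 of 9 beside 10.9% of all genes lower and 21.9% in either direction, and the median was −0.46 against 0.05 for all genes, or −0.28 against −0.00087 with the trend removed. Without replicate 2 labelled Ezh2 ECKO, 4 of 9 were called lower (Cdkn1a, Cdkn2b, Trp53 and Bax), beside 18.5% of all genes in either direction and 10.4% lower, and without WT replicate 3 Trp53 was called lower, beside 4.53%.

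In beta-catenin GOF against WT, 0 of 9 were called by edgeR, beside 0% of all genes, and 0 by DESeq2, beside 0.302%, and 0 of 9 had an unadjusted p under 0.05, beside 6.07% of all genes. Cdkn2b lay above and Mdm2 below WT without overlap, 2 of 9 beside 12.7% of all genes. Between the Ezh2 ECKO-labelled libraries and Hdac2 ECKO, edgeR called 0 of 9 beside 0.0239% of all genes, with 1 of 9 (Cdkn1a) at an unadjusted p under 0.05, beside 8.19%, and 1 by DESeq2, beside 0.779%. Cdkn1a also did not overlap there, beside 13.2% of all genes, in libraries of which Hdac2 ECKO had entered the choice. Between beta-catenin GOF and the Ezh2 ECKO-labelled libraries, it called 0 of 9 beside 0.0636%, with 3 of 9 (Bax, Trp53 and Cdkn2b) at an unadjusted p under 0.05, beside 13.2%, and 0 by DESeq2, beside 1.14%. Trp53 did not overlap there, beside 16.7% of all genes. In the contrast that entered the choice, beta-catenin GOF against Hdac2 ECKO, 1 of 9 was called, beside 0.0716% of all genes, and nothing is read from that count.

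**Figure D3:**
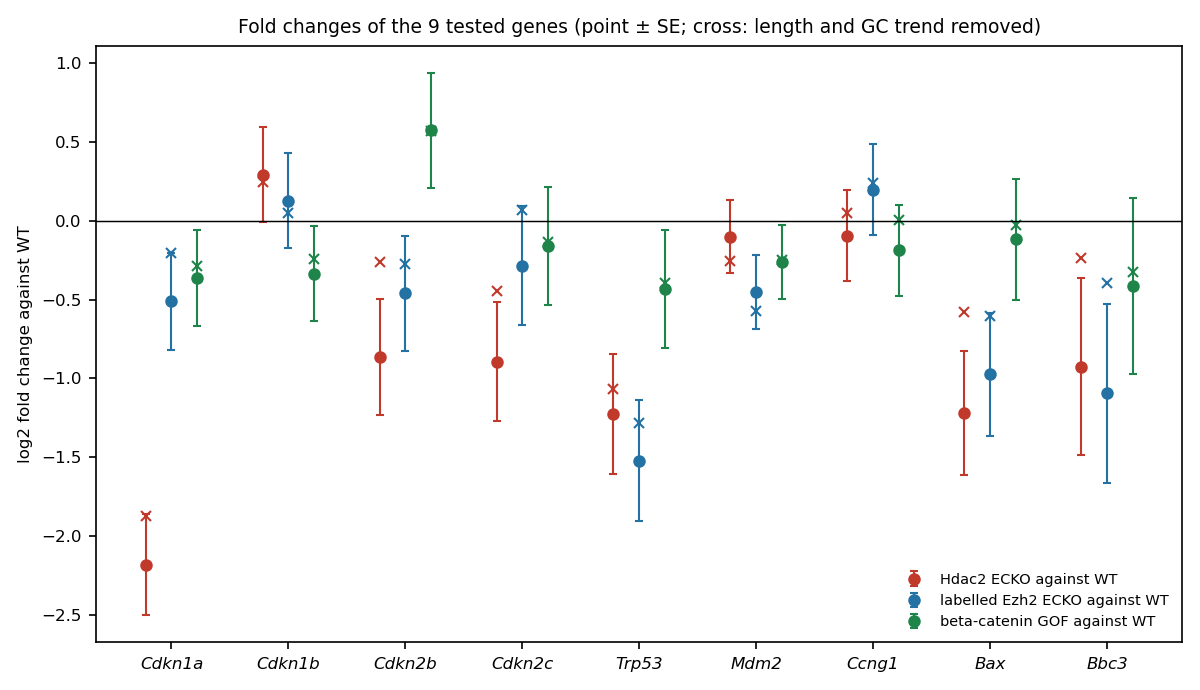
Log2 fold change against WT (vertical axis) of the 9 tested genes in Hdac2 ECKO (red), in the Ezh2 ECKO-labelled libraries (blue) and in beta-catenin GOF (green), as points with bars of ± 1 SE. Crosses are the values with the trend of length and GC content removed. Cdkn1a in Hdac2 ECKO is the lowest point at −2.18, and its cross stays at −1.87, while the crosses of Cdkn2b, Cdkn2c, Bax and Bbc3 in Hdac2 ECKO lie closer to 0 than their points.

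Of 36 other known p53 targets, 35 were in the table and 30 were tested. In Hdac2 ECKO against WT 0 were called higher and 2 lower, beside 5.38% of all genes called lower, a share near that of the list. Triap1, an inhibitor of apoptosis that p53 induces, fell to 53.4 ± 7.67 CPM from 98.1 ± 8.71 (log2 fold change −0.88, SE 0.24, adjusted p = 0.040), without overlap. Ephx1, an epoxide hydrolase, fell from 198 ± 93.4 to 69.5 ± 39.2 CPM (−1.51, SE 0.41, adjusted p = 0.040), with overlap. Neither passed with the trend removed (adjusted p = 0.20 and 0.073). The median of the 30 targets was 0.28, against 0.10 over all genes and −0.89 over the 9 genes. The medians after removal of the trend were 0.09, 0.04 and −0.26, a smaller gap. The Hdac2 ECKO libraries entered the choice of the 9 genes, which also include Trp53 and CDK inhibitors. The gap between the medians is therefore a description. In the Ezh2 ECKO-labelled libraries and in beta-catenin GOF 0 of 30 were called against WT, with medians of 0.21 and −0.03.

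Regulators of p53 (20 genes, 18 tested) were called in 1 case in Hdac2 ECKO against WT, beside 9.2% of all genes. Cop1, a ubiquitin ligase for p53, rose to 63.2 ± 15.7 CPM from 30.3 ± 6.48 (log2 fold change 1.06, SE 0.30, adjusted p = 0.042). It has 17516 bases of counted length, and with the trend of length and GC content removed the value was 0.07 (adjusted p = 0.88). The median of the 18 regulators went likewise from 0.52 to 0.04, and their median length was 8144 bases. None was called in the other comparisons with WT.

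Of the other CDK inhibitors, Cdkn1c, Cdkn2d and Cdkn3, all tested, 1 was called in Hdac2 ECKO against WT, beside 9.2% of all genes. Cdkn2d, the INK4 gene of p19, stood at 74.3, 70.8 and 52.5 CPM in WT and at 9.08, 32.4 and 19.7 CPM in Hdac2 ECKO. The groups did not overlap, and replicate 2 was the highest of Hdac2 ECKO. The log2 fold change was −1.69 (SE 0.43, edgeR adjusted p = 0.036), and −1.15 with the trend removed (adjusted p = 0.037). Labelled Ezh2 ECKO it was −0.91 (adjusted p = 0.20), and in beta-catenin GOF −0.28 (adjusted p = 0.95). Cdkn1c had −1.02 in Hdac2 ECKO against WT (edgeR adjusted p = 0.099) and −0.77 labelled Ezh2 ECKO. Cdkn3 had −0.11 in Hdac2 ECKO (adjusted p = 0.95) and 0.57 labelled Ezh2 ECKO. Cdkn1a and Cdkn2d were thus the CDK inhibitor genes called lower in Hdac2 ECKO, both also with the trend removed. Cdkn1b, Cdkn2b, Cdkn2c, Cdkn1c and Cdkn3 were not called.

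Among the targets of the inhibitors, the CDKs, cyclins, Rb and E2f genes (26 genes, 22 tested), 1 rose and 1 fell in Hdac2 ECKO against WT, a share near the 9.2% of all genes called. E2f3, a transcription factor of S-phase genes, rose to 5.98 ± 0.85 CPM from 2.13 ± 0.46 (log2 fold change 1.49, SE 0.42, adjusted p = 0.042). Labelled Ezh2 ECKO it stood at 7.54 ± 0.79 CPM, a value of 1.82 that did not pass (adjusted p = 0.051). Cdk4, the kinase that INK4 proteins bind, fell from 225 ± 42.8 to 91.0 ± 36.3 CPM (−1.30, SE 0.38, adjusted p = 0.045). Neither passed in Hdac2 ECKO with the trend removed (adjusted p = 0.058 and 0.057). The median of the 22 genes was −0.02, against 0.10 over all genes.

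Of 13 other BCL2 family genes, 12 were tested, and in Hdac2 ECKO against WT 2 fell, beside 5.38% of all genes called lower: Bok, a relative of Bax, from 31.8 ± 6.34 to 9.99 ± 2.14 CPM, and Bik, a BH3-only gene, from 18.9 ± 2.73 to 4.01 ± 0.13 CPM. Their log2 fold changes were −1.67 (SE 0.40, adjusted p = 0.034) and −2.24 (SE 0.60, adjusted p = 0.040). With the trend removed they were −0.96 (adjusted p = 0.082) and −1.55 (adjusted p = 0.068). The family's median was 0.01. Of 14 factors known to act on the Cdkn1a promoter, Cebpb alone was called in that comparison (1 of 14, beside 9.2% of all genes), from 18.3 ± 8.59 to 5.80 ± 3.69 CPM (−1.66, SE 0.49, adjusted p = 0.047), and it was −0.73 with the trend removed (adjusted p = 0.40).

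Immediate early genes were called lower in 6 of 16 cases in Hdac2 ECKO against WT, beside 5.38% of all genes. Over Atf3, Jund, Junb, Ier2, Zfp36 and Ier3, log2 fold changes ran from −2.41 (Atf3) to −1.52 (Ier3) and adjusted p from 0.032 to 0.035. After removal of the trend 4 of the 6 passed, and Junb (adjusted p = 0.0504) and Ier3 (adjusted p = 0.076) did not. Not every gene of the list was lower in Hdac2 ECKO: Egr2 (0.98), Fosb (0.40), Jun (0.28), Fosl2 (0.24) and Klf6 (0.14) had values above 0. Dusp1 (−1.36, edgeR adjusted p = 0.062), Btg2 (−0.80), Nr4a1 (−0.40), Fos (−0.35) and Egr1 (−0.01) had values below 0. None of these was called. Atf3, a stress-induced factor, stood at 831, 380 and 246 CPM in WT and at 97.0, 59.0 and 117 CPM in Hdac2 ECKO. WT replicate 1 was the highest for Atf3 and for the summed list, and it also had the highest Cdkn1a. Atf3 was also lower in the Ezh2 ECKO-labelled libraries (138 ± 53.3 CPM, −1.81, adjusted p = 0.048), the 1 call of 16 there beside 1.03% of all genes, and it was not called with the trend removed (−1.49, adjusted p = 0.052). It had −1.39 in beta-catenin GOF (adjusted p = 0.54), where 0 of 16 were called. Every value of the list lay below 0 in beta-catenin GOF, from −1.71 (Zfp36) to −0.07 (Fosb). The medians of the list were −0.60, −0.42 and −1.03 in Hdac2 ECKO, labelled Ezh2 ECKO and beta-catenin GOF, and −0.30, −0.09 and −0.91 with the trend removed. All calls in these lists share the limit of Cdkn1a: at most 1 gene of the table passed in Hdac2 ECKO against WT without WT replicate 1, WT replicate 2, Hdac2 ECKO replicate 1 or Hdac2 ECKO replicate 3. Btg2 and Pmaip1, Egr1 and Klf6 each stand on more than 1 list.

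**Figure D4:**
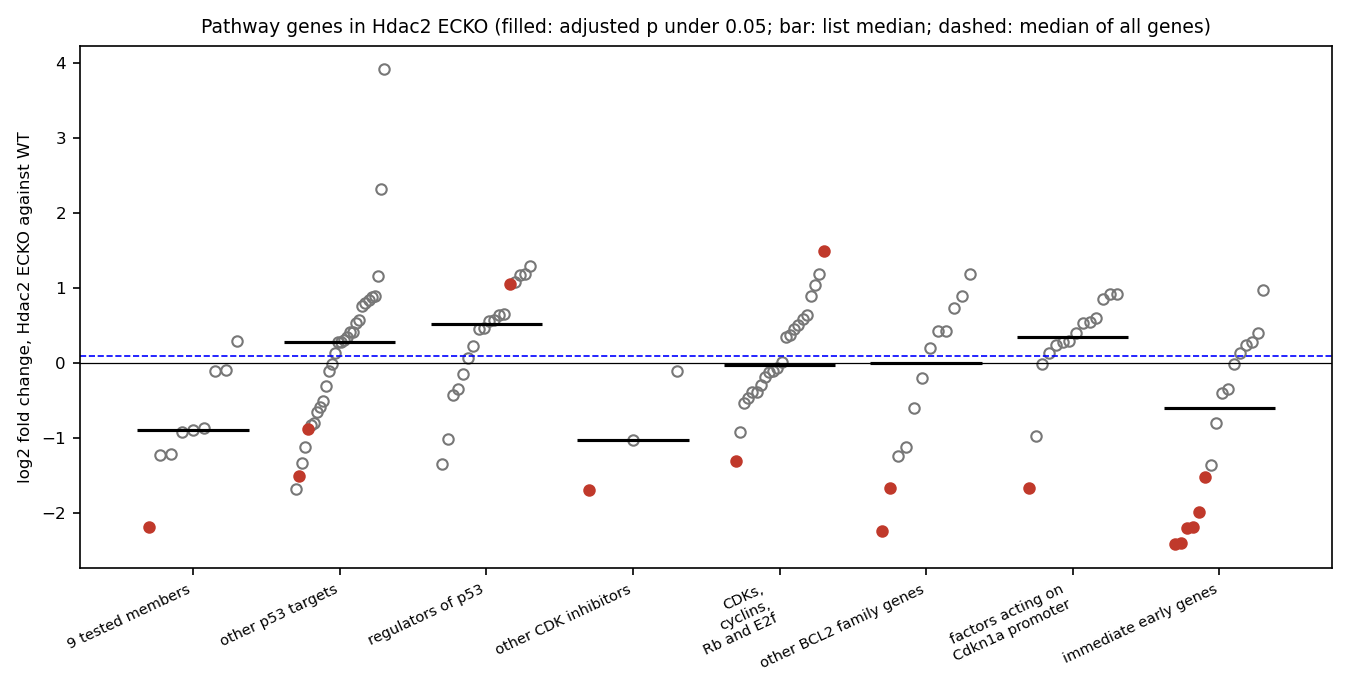
Log2 fold change of Hdac2 ECKO against WT (vertical axis) for each tested gene of the set and of 7 lists (horizontal axis), where filled points passed the test, open points did not, the bar is the list's median and the dashed line the median of all genes at 0.10. The 9 tested genes have a median of −0.89 and the 30 other p53 targets one of 0.28 (−0.26 and 0.09 with the trend removed), and the immediate early genes hold 6 filled points. The Hdac2 ECKO libraries entered the choice of the 9 genes, so the median of that set is a description. The highest open point is Eda2r, at 0 CPM in all WT libraries and at most 0.0757 CPM in Hdac2 ECKO, which is under the floor of 3 read pairs.

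The genes most like Cdkn1a across the 12 libraries were sought by Pearson's r of log2(CPM + 1), as a description that the groups and the length trend both shape. They were Rhoa (r = 0.96), the small GTPase of actin stress fibres, then Yaf2 (0.94), Ube2d1 (0.94), Arl4a (0.94) and Actr10 (0.93). The level of Rhoa was 441 ± 72.9 CPM for WT, 187 ± 30.6 for Hdac2 ECKO, 315 ± 105 in the Ezh2 ECKO-labelled libraries and 350 ± 18.5 in beta-catenin GOF. The level of Ube2d1, a ubiquitin-conjugating enzyme, was 73.0 ± 11.3 CPM for WT, 29.7 ± 7.58 for Hdac2 ECKO, 56.3 ± 22.7 in the Ezh2 ECKO-labelled libraries and 57.1 ± 6.12 in beta-catenin GOF. These genes shared the order of Cdkn1a, lowest in Hdac2 ECKO and highest in WT, at 7494 and 4371 bases of length. Within the set, r with Cdkn1a was 0.73 for Bax, 0.68 for Cdkn2b, 0.64 for Cdkn2c, 0.61 for Trp53, 0.44 for Bbc3, −0.11 for Mdm2, −0.17 for Ccng1 and −0.52 for Cdkn1b. No p is given, since all points share libraries, groups and the trend.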

How the data were processed

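RNA-seq counts of 12 libraries were used. Per the submitters' processing notes, FastQC, cutadapt, STAR, featureCounts and DESeq2 were used with build mm10; their roles, versions, annotation and strand setting are not given in the sources used here. The table deposited by the authors is titled as normalized, but its values were whole-number counts with unequal totals, and 79.5% to 84.0% of values from 10 to 50 were even, against 59.4% to 67.1% from 300 to 1000, as when both mates are counted. They were treated as raw counts. Gene positions matched GENCODE M21 on GRCm38 for 98.4% of genes, and GC content was available for 99.1%.

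Groups came from the sample titles. Differences were tested by quasi-likelihood F tests in edgeR 4.0.16 (R 4.3.3), TMM-scaled, in 1 joint model of the 12 libraries, on the 12577 genes that averaged 10 or more counts. P-values were adjusted by Benjamini-Hochberg over all tested genes in each of 6 contrasts, with a threshold of 0.05. Standard errors came from the F statistic, and intervals are 95% and normal. CPM uses TMM-scaled totals. At these depths the floor used, 3 read pairs (6 counts), equals 0.166 to 0.242 CPM, and it covers counting error only. Alternatives were DESeq2 1.42.0, median-ratio scaling, library totals alone, no filter, a minimum mean count of 50, sample quality weights (limma 3.58.1), only the 2 groups compared, a replicate block, removal of the trend with length and GC content (splines with 5 degrees of freedom as offsets), and each library left out. The fits were tested on simulated data. Replicates of a group differed by more than sampling noise (lowest chi-square per degree of freedom 65.2).

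The 10 genes, the lists and the tests were chosen with earlier results of these data known. All 10 genes are named. From each list, genes past the threshold in a comparison with WT or with the Ezh2 ECKO-labelled libraries are named, up to 6 by smallest p, and the 5 genes most like Cdkn1a by Pearson's r. Eda2r, and the genes under other observations, were named after their values were seen.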

Additional observations from a re-analysis of the deposited data

How the results depend on the processing

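How many of the 9 tested genes passed depended on the processing. In Hdac2 ECKO against WT the count of 1 became 3 with DESeq2 (beside 19.9% of all genes), 5 with no filter (11.2%) and 5 with sample quality weights (42.7%). It became 2 at a mean count of at least 50 (beside 1411 of 10815 genes) and 2 in a fit of only the 2 groups (1466 of 12577). With single libraries left out it was 0 to 3 (beside 0% to 17.6%). Labelled Ezh2 ECKO against WT, 0 became 1 with DESeq2 (beside 10.1% of all genes), 2 with no filter (6.72%) and 4 with quality weights (29.8%). With libraries left out it was 0 to 4 (beside 0.0159% to 18.5%). Labelled Ezh2 ECKO against Hdac2 ECKO, 0 became 1 with DESeq2 (beside 0.779% of all genes) and 1 with no filter (0.978%). In beta-catenin GOF against Hdac2 ECKO, 1 became 2 with DESeq2, 0 with median-ratio scaling and 0 with library totals alone. It became 3 with no filter, 4 with quality weights and 0 with the length and GC trend removed. With libraries left out it was 0 to 3 (beside 0% to 4.3% of all genes). That contrast entered the choice of the genes and nothing is read from its counts, and over all genes its calls went from 9 to 533, 7, 4, 978, 3339 and 1 under the same 6 settings. In beta-catenin GOF against the Ezh2 ECKO-labelled libraries, 0 became 1 with no filter (beside 1.76% of all genes) and 3 with quality weights (11.7%). With libraries left out it was 0 to 2 (beside 0.00795% to 5.81%). In beta-catenin GOF against WT it was 0 in every fit run, beside at most 0.772% of all genes. The cause was not tested. Over all genes, calls in Hdac2 ECKO against WT went from 1157 to 2497 with DESeq2, 2279 with no filter, 5374 with quality weights and 1832 with the replicate block; labelled Ezh2 ECKO against WT, from 129 to 1271, 1367, 3743 and 536, and to 17 with only the 2 groups. Scaling by library totals alone moved the median of all genes in Hdac2 ECKO against WT from 0.10 to 0.34 and the calls from 480 higher and 677 lower to 1469 and 357. Cdkn1a in beta-catenin GOF against the Ezh2 ECKO-labelled libraries (0.15) reversed to −0.085 with the trend removed, and with libraries left out it ran from −0.032 to 0.62, reversed without replicate 1 (−0.032) and replicate 3 (−0.022) labelled Ezh2 ECKO.

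Replicate numbers showed no pairing that held in every comparison. The correlation of same-numbered deviations was −0.14, 0.06 and 0.05 between Hdac2 ECKO and WT. It was 0.100, 0.27 and 0.06 between the Ezh2 ECKO-labelled libraries and Hdac2 ECKO. Between beta-catenin GOF and Hdac2 ECKO it was 0.13, 0.15 and −0.02, and no comparison had all 3 over 0.1. With the replicate number as a block, 3 of the genes passed in Hdac2 ECKO against WT (Cdkn1a, Trp53 and Bax), beside 14.6% of all genes. In that fit 1 passed labelled Ezh2 ECKO against WT (Trp53), beside 4.26%, and the other counts did not move. Each group had 3 libraries, 1 library labelled Ezh2 ECKO stood apart, and how near a difference came to the threshold varied with the comparison. Trp53 had −1.23 in Hdac2 ECKO against WT (edgeR adjusted p = 0.054). Its value of 1.09 in beta-catenin GOF against the Ezh2 ECKO-labelled libraries had an adjusted p of 0.30.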

Other observations

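Some list genes passed only with the trend of length and GC content removed, and were picked for that after their values were seen. Rps27l, a p53 target that encodes a ribosomal protein relative, stood at 381, 530 and 936 CPM in WT and at 1419, 700 and 1279 CPM in Hdac2 ECKO, with overlap. Its log2 fold change was 0.88 as counted (edgeR adjusted p = 0.097) and 1.22 with the trend removed (adjusted p = 0.032), opposite in sign to that of Cdkn1a. Pmaip1, the gene of the BH3-only protein Noxa and a p53 target, stood at 171, 366 and 191 CPM in the Ezh2 ECKO-labelled libraries and at 40.6, 29.8 and 25.6 CPM in beta-catenin GOF, without overlap. The difference of beta-catenin GOF from the Ezh2 ECKO-labelled libraries was −2.92 as counted (SE 0.53, adjusted p = 0.060) and −2.84 with the trend removed (adjusted p = 0.044). E2f3 had 1.74 labelled Ezh2 ECKO against WT with the trend removed (adjusted p = 0.045). E2f5, a repressive E2f factor, had 1.03 in Hdac2 ECKO against WT with the trend removed (adjusted p = 0.049) and 0.51 as counted (adjusted p = 0.23).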
